A study of Mus musculus with 29 samples.

Results

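Kit, the receptor tyrosine kinase, and Kitl, the gene of its ligand (Kit ligand, also called stem cell factor), were followed in mouse ovaries with and without Cdkn1b, which encodes p27Kip1, an inhibitor of cyclin-dependent kinases. They are 2 of the 51912 gene IDs in the deposited count table. They are a known ligand and receptor pair of primordial follicle activation, and they were selected on their measured differences between null and wild-type ovaries at postnatal day 8 (PND8) and at 12 weeks (12wk). Those differences are therefore described here without a test.

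Kit ligand is made by the somatic cells around the germ cells, first the pregranulosa and later the granulosa cells, and is held at the cell surface or shed from it. Kit sits on primordial germ cells and oocytes, and also on theca and interstitial cells, mast cells and melanocytes. Binding of the ligand makes Kit dimerise and phosphorylate itself, which recruits PI3K, SRC kinases and adaptors. In the oocyte of a primordial follicle, PI3K and AKT signalling moves the transcription factor FOXO3 out of the nucleus, and the follicle starts to grow.

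RNA was sequenced from dissociated ovary cells of wild-type (Cdkn1b +/+, WT) and homozygous null (Cdkn1b -/-, null) mice. The fetal ages were E13.5 and E18.5 (days of gestation), and the later ones PND8 and 12wk. There were 4 libraries in each WT group and in the null group of E18.5, and 3 in each of the other null groups, or 29 libraries in 8 groups. The labels give no strain, no litter and no number of animals per library, so a p-value measures the spread between these libraries, which may be partly technical. The labels name no promoter or Cre that would restrict the null allele to some cells.

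Library totals ran from 14.1 M to 48.2 M counts, at most 24.9 M at the fetal ages and at least 24.1 M at the later ones. The file headers name a folder of 2 combined projects without saying which library came from which. A batch that follows age could not be told apart from age. Levels are given as CPM, counts scaled to a common library total after TMM scaling over the 29 libraries. Kit and Kitl had 704 to 24893 counts in a library, so counting error alone was 0.634% to 3.77% of a value, far below the spread between replicates. Cdkn1b was lower in every null library than in every WT library of its age, with group means of 22.9 CPM in WT and 4.50 CPM in null at E13.5, of 103 and 12.5 CPM at E18.5, and of 148 and 71.5 CPM at PND8. At 12wk the WT libraries ran from 124 to 265 CPM and the null ones from 42.1 to 56.2 CPM, a difference that did not pass the adjustment (log2 -1.85, edgeR adjusted p = 0.211). 1 library stood apart: haemoglobin genes took 19% of the counts of WT E13.5 replicate 3, and at most 3.59% in the other E13.5 and E18.5 libraries.

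The values are sums over the transcripts of each gene. Kit (ENSMUSG00000005672) lies on the plus strand at chr5:75574916-75656722 of GRCm38 and has 8 transcripts in GENCODE M21, of which 2 code for protein. Kitl (ENSMUSG00000019966) lies on the plus strand at chr10:100015630-100100416 and has 6 transcripts, of which 4 code for protein. The next sequences are shown because the gene counts cannot separate the forms that differ by them. Kitl exon 6, 84 bases at chr10:100080857-100080940, is in transcript Kitl-202 and not in Kitl-201; it carries the main site at which the ligand is cut from the membrane, so its skipping leaves the form that stays at the cell surface. The last 12 bases of Kit exon 9, chr5:75639147-75639158, are in Kit-201 and not in Kit-204, which gives the longer and the shorter receptor. Capitals mark the bases that are in one form only, with 24 bases of the neighbouring transcript on each side in lower case.
Kitl exon 6: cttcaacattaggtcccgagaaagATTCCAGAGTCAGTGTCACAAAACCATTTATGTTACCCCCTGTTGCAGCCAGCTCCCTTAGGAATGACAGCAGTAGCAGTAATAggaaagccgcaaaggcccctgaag
Kit exon 9 end: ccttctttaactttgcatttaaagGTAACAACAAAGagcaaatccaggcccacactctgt

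The DNA just before each start is shown next, as RefSeq lists it on GRCm38.p6, since these 2 genes were followed side by side. The windows hold 250 bases, chr5:75574737-75574986 for Kit (the first of 2 listed starts) and chr10:100015571-100015820 for Kitl, both on the plus strand. The starts are those of RefSeq. The GENCODE positions given above begin earlier, at 75574916 for Kit and 100015630 for Kitl. Part of each window thus lies within the gene as GENCODE has it, including all marked matches of Kitl. Capitals mark matches to the motif TATAAA, known as a core promoter element, and to the motif GGGCGG, which Sp1 factors bind, searched on both strands.
Kit promoter: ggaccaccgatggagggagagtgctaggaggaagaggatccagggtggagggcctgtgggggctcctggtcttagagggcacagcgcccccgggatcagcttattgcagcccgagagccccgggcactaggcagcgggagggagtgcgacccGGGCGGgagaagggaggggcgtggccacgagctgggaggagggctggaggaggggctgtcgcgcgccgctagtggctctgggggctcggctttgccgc
Kitl promoter: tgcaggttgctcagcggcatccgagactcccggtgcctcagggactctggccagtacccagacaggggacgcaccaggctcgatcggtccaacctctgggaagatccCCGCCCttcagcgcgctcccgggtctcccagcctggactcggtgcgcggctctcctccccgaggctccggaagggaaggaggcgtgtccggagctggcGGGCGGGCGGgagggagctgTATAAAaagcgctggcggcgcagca
The Kitl window holds TATAAA at 25 bases before the start and GGGCGG at 45, 41 and 143 bases before it, of which the first 2 overlap and the third is on the minus strand. The Kit window holds GGGCGG once, at 98 bases before the start, and no TATAAA. Neither window holds CANNTG, the E-box core. Of all 32851 windows of this length, 12.4% hold TATAAA, 32.7% hold GGGCGG and 66.2% hold CANNTG. GC content was 70.8% in the Kit window and 69.2% in the Kitl window.

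Kitl, the ligand, moved over a wider range than Kit, the receptor. The group means of Kitl differed 7.30-fold between the highest group, null E18.5, and the lowest, WT 12wk. Those of Kit differed 2.96-fold between null E13.5 and WT 12wk. The highest group means also fell at different ages, E13.5 for Kit and E18.5 for Kitl. For Kit the difference between the fetal ages did not pass the adjustment in WT or in null. From high to low, the Kit groups were null E13.5, WT E13.5, null E18.5, null 12wk, WT E18.5, null PND8, WT PND8 and WT 12wk. From one group to the next, only WT E18.5 and null PND8 were neighbours whose libraries did not overlap. The Kitl groups were null E18.5, WT E18.5, null E13.5, null PND8, WT E13.5, null 12wk, WT PND8 and WT 12wk, and only WT E18.5 and null E13.5 were neighbours without overlap.

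**Figure D1:**
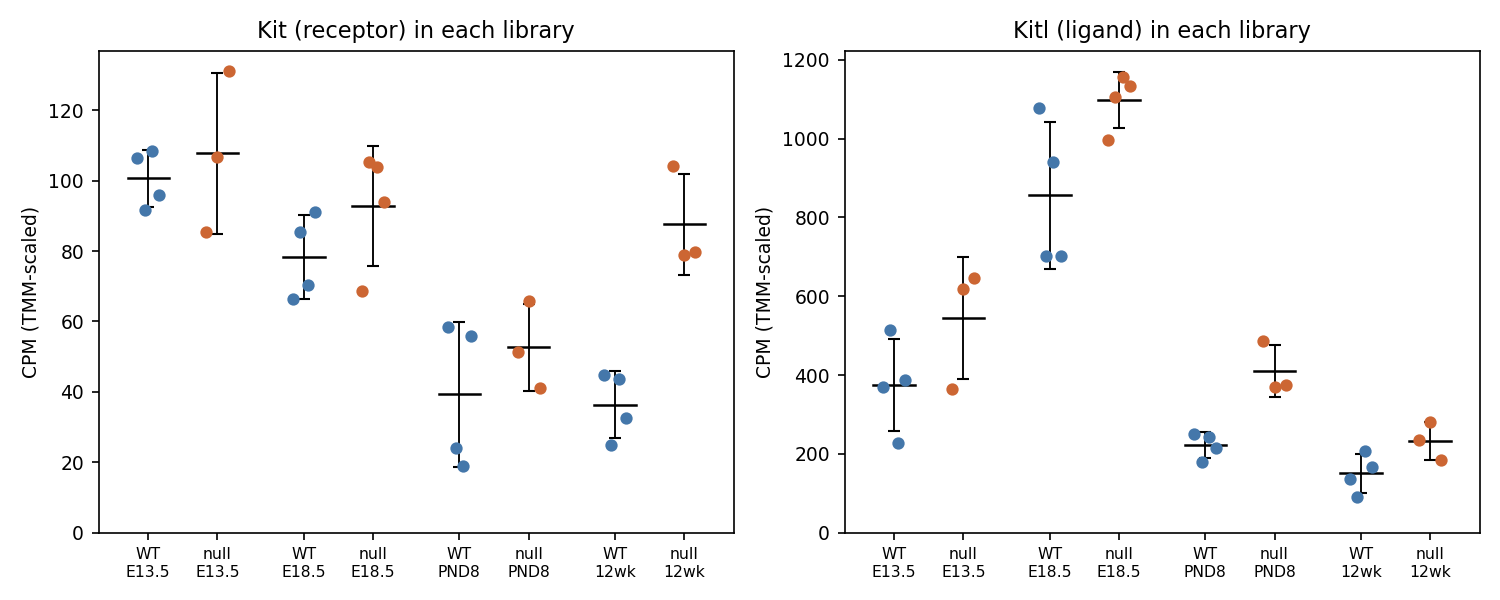
Kit (left) and Kitl (right) in each library, as CPM on a linear axis that starts at 0, by age and genotype; points are libraries, and lines with bars are group means with 1 SD. Null 12wk is the only null group whose Kit values all lie above the WT values of its age, and null PND8 the only one for Kitl.

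In WT ovaries Kit was highest at E13.5 and about as low at PND8 as at 12wk. Its values were 106, 91.7, 109 and 96.0 CPM at E13.5 in replicates 1 to 4, and 66.5, 85.3, 70.3 and 91.2 CPM at E18.5. The E18.5 libraries were all below the lowest E13.5 library, by a small margin for replicate 4. The difference was -0.37 on the log2 scale (SE 0.133), and it did not pass the threshold of 0.05 (edgeR quasi-likelihood, Benjamini-Hochberg adjusted p = 0.0512), in a comparison in which 34% of 16603 genes did and 17% were lower without overlap. It passed with RLE scaling, with DESeq2, with limma-voom and without WT E18.5 replicate 4, where the difference was -0.45 and the adjusted p 0.0374 by the same test.

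At PND8 the WT values of Kit were 58.4, 24.0, 19.0 and 55.8 CPM, all below the E18.5 libraries. Replicates 2 and 3 were low and replicates 1 and 4 high, with no library between 24.0 and 55.8 CPM. The difference from E18.5 was -1.07 on the log2 scale (SE 0.343). It is given without a test, as are the other differences within a genotype that involve PND8 or 12wk, because the libraries of those ages entered the selection of the genes. At this step 74.6% of 17421 genes passed and 32.4% were lower without overlap. The 12wk WT libraries had 44.7, 24.8, 43.7 and 32.5 CPM, all within the PND8 range. The difference from PND8 was -0.04 (SE 0.384), with an SE many times the difference, and 30.5% of 17293 genes passed at this step.

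Kitl rose before birth in WT and was lower after it. At E13.5 its values were 369, 514, 229 and 389 CPM, and at E18.5 they were 1078, 702, 941 and 702 CPM, without overlap. The lowest E13.5 value was that of replicate 3, the library with the high haemoglobin share. The rise was 1.18 on the log2 scale (SE 0.239, edgeR adjusted p = 0.0038), and it ranged from 1.02 to 1.37 when each library was left out in turn. At this step 17.4% of genes were higher without overlap.

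At PND8 Kitl measured 251, 181, 244 and 215 CPM in WT, all far below E18.5. The difference was -2.02 on the log2 scale (SE 0.170). At 12wk the values were 136, 91.9, 208 and 166 CPM, which overlapped PND8 through replicate 3 alone. The difference was -0.49 (SE 0.229).

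In null ovaries Kitl also rose before birth. It measured 366, 620 and 646 CPM at E13.5 in null replicates 1, 3 and 4, and 997, 1107, 1157 and 1133 CPM at E18.5, without overlap. The rise was 1.04 on the log2 scale (SE 0.178, edgeR adjusted p = 0.00314), where 30.2% of 16598 genes passed and 20.4% were higher without overlap. Kit measured 85.5, 107 and 131 CPM in null E13.5 and 68.5, 105, 104 and 93.8 CPM in null E18.5. These ranges overlapped, and the difference of -0.19 (SE 0.179) did not pass (edgeR adjusted p = 0.456). Later steps in the null ovaries are given by their levels only.

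At E13.5 the genotypes were not told apart at either gene. 1 of 3 null libraries exceeded the highest WT library for Kit and 2 of 3 did for Kitl. The difference, null against WT, was 0.06 for Kit (SE 0.155, edgeR adjusted p = 0.988) and 0.50 for Kitl (SE 0.268, edgeR unadjusted p = 0.0969, adjusted p = 0.988). For Kit the sign turned when null replicate 4 was left out, at -0.10, and for Kitl the difference was 0.36 to 0.71 as each library was left out and 0.68 with a replicate block. In this comparison 0.00606% of 16508 genes passed (1 gene, Cdkn1b).

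At E18.5 Kitl was higher in 3 of 4 null libraries than in every WT library. Its means were 1098 ± 70.8 CPM (SD, n = 4) in null and 856 ± 186 CPM (n = 4) in WT. The lowest null library, replicate 1, was below the highest WT library, replicate 1. The difference of 0.35 (SE 0.147) did not pass the adjustment (edgeR unadjusted p = 0.0358, adjusted p = 0.189), while 4.99% of 16322 genes did. Kit stood at 92.9 ± 17.0 CPM (n = 4) in null and 78.3 ± 11.8 CPM (n = 4) in WT, with 3 of 4 null libraries above the highest WT library and null replicate 1 low. That difference was 0.24 (SE 0.150, edgeR adjusted p = 0.380).

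The genotype difference at E18.5 was also set against that at E13.5 in an interaction term over the 15 fetal libraries. It was 0.17 for Kit (SE 0.235, edgeR adjusted p = 0.883) and -0.16 for Kitl (SE 0.314, edgeR adjusted p = 0.933), and 0.421% of 18052 genes passed. Neither gene's fetal genotype difference was shown to depend on age, and each SE exceeded its difference.

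The PND8 and 12wk genotype values selected the genes, and they are listed here as a description from which nothing is read. At PND8 Kitl measured 487, 370 and 375 CPM in null replicates 1, 3 and 4, each above the highest WT value of 251 CPM. The means were 411 ± 66.3 CPM (SD, n = 3) and 223 ± 32.1 CPM (n = 4), a log2 difference of 0.87 (SE 0.137). For scale, 0.349% of 17785 genes passed at PND8 and 7.89% were higher in null without overlap.

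Kit at PND8 measured 51.3, 65.8 and 41.1 CPM in null. The first and the last were within the WT range of 19.0 to 58.4 CPM, and replicate 3 was above it. Its log2 difference was 0.41 with an SE of 0.446, so that the error exceeded the difference. Whether the genotype difference of Kitl exceeded that of Kit at this age was not tested.

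At 12wk Kit measured 104, 78.9 and 79.9 CPM in null replicates 1, 3 and 4, and at most 44.7 CPM in WT. The means were 87.6 ± 14.3 CPM (n = 3) and 36.4 ± 9.50 CPM (n = 4), a log2 difference of 1.26 (SE 0.217). The null 12wk libraries lay within the range of the fetal ones, while the WT 12wk libraries lay below all of these. At this age 0.0115% of 17396 genes passed and 4.66% were higher in null without overlap.

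Kitl at 12wk measured 236, 280.5 and 184 CPM in null. Replicate 4 was below the highest WT library, replicate 3 at 208 CPM, and the other 2 were above it. The means were 234 ± 48.3 CPM (n = 3) and 150.5 ± 49.1 CPM (n = 4), a log2 difference of 0.63 (SE 0.259). The ratio of means, null over WT, was 2.41 for Kit at 12wk, an age that selected the genes. At the fetal ages, which did not, it ran from 1.07 for Kit to 1.45 for Kitl, both at E13.5. No fetal genotype difference of Kit or Kitl passed.

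**Figure D2:**
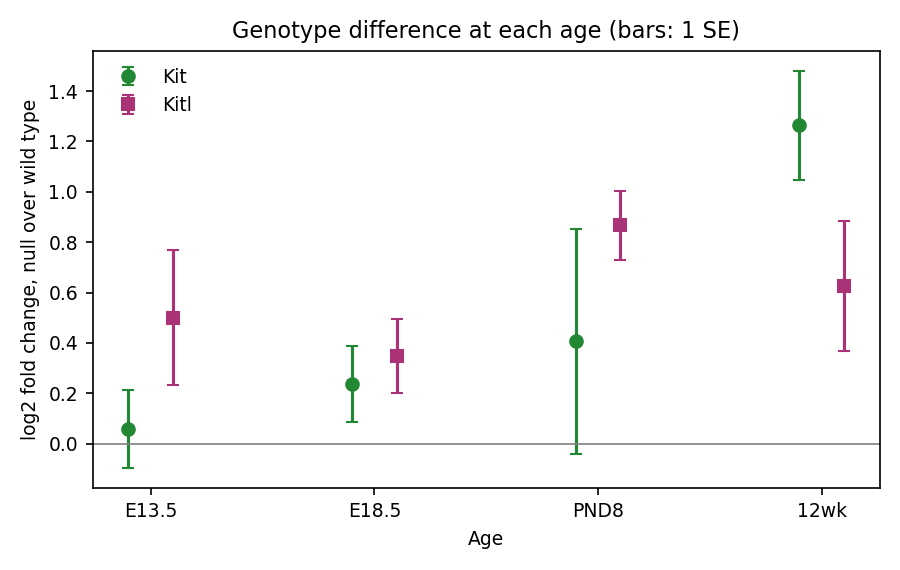
Genotype difference of Kit (circles) and Kitl (squares) at each age, as the log2 fold change of null over WT with 1 SE. Kit goes from 0.06 at E13.5 to 1.26 at 12wk, and Kitl is between 0.35 and 0.87 at the 4 ages; the PND8 and 12wk values chose the genes.

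The balance of ligand to receptor was described by the ratio of Kitl to Kit counts per annotated exon length in each library, a ratio that does not depend on scaling between libraries. In WT (n = 4 at each age, ± SD) the E13.5 ratio was 3.47 ± 1.32, the E18.5 ratio 10.4 ± 3.75, the PND8 ratio 6.50 ± 3.77 and the 12wk ratio 3.78 ± 0.875. Every E18.5 library, the lowest at 7.01, was above every E13.5 library, the highest at 5.11. The PND8 values ran from 3.51 to 11.7, with the high ones in replicates 2 and 3, whose Kit was low.

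In null ovaries (n = 4 at E18.5, otherwise 3) the ratio was 4.56 ± 0.700, 11.0 ± 1.61, 7.36 ± 1.95 and 2.47 ± 0.668, in order of age. The genotypes overlapped at each age. At 12wk the null ratios of 2.07, 3.24 and 2.10 included the lowest value of that age, and the WT ratios there were 2.76, 3.37, 4.34 and 4.66. The mean ratio was higher in null than in WT at 3 ages and lower at 12wk, always within overlapping ranges. The PND8 and 12wk ratios are made of the values that selected the genes. Their genotype differences are therefore a description from which nothing is read.

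**Figure D3:**
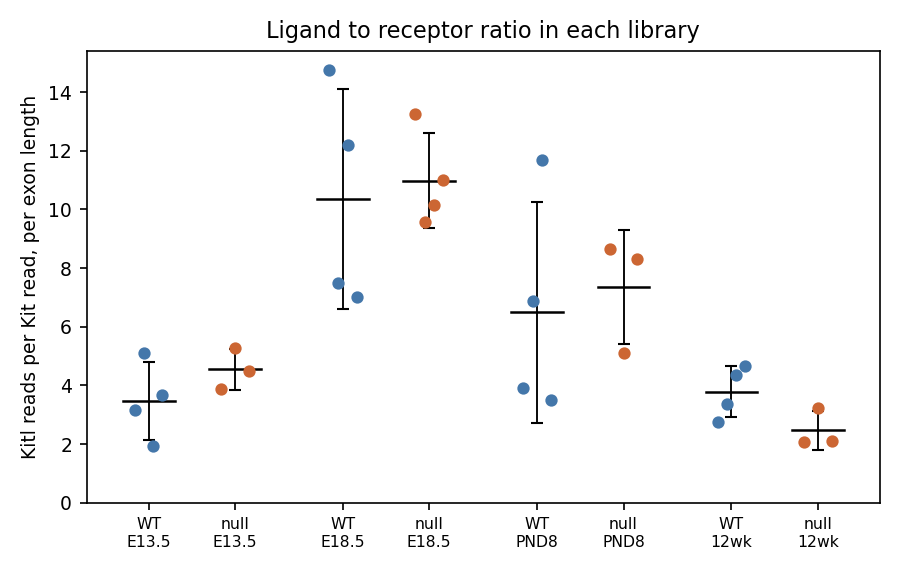
Kitl reads per Kit read, each divided by the gene's exon length, in each library (points), with group means and 1 SD, on a linear axis from 0. The ratio peaks at E18.5 in both genotypes, at means of 10.4 and 11.0, and the genotypes overlap at every age.

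Markers of the cells that carry Kit were read beside it. In bulk tissue, fewer cells of a type and less RNA per cell cannot be told apart. The 15 oocyte markers summed to 979, 296, 330 and 1103 CPM in WT PND8 replicates 1 to 4, so the 2 libraries with low Kit were also the 2 with low oocyte markers. In null PND8 the sums were 699, 1692 and 885 CPM, and the library with the highest Kit, replicate 3, had the highest sum. The other null libraries were not in the order of Kit, since replicate 4 had less Kit than replicate 1 and a higher sum. At E18.5 the WT sums were 189, 519, 181 and 392 CPM, again low in the replicates 1 and 3 that had low Kit. In null E18.5 they were 131, 322, 236 and 183 CPM, in the same order as Kit. Haemoglobin genes took 2.7%, 0.738%, 3.59% and 0.18% of the counts in WT E18.5 replicates 1 to 4. In null E18.5 they took 2.62%, 0.194%, 1.35% and 0.172%, so replicates 1 and 3 were higher in both genotypes. The part of this split was not tested. At E13.5 the oocyte sums were 321, 269, 395 and 354 CPM in WT, highest and lowest in the replicates with the highest and lowest Kit. In null E13.5 they were 210, 623 and 436 CPM in replicates 1, 3 and 4. There the highest sum was in replicate 3 and the highest Kit in replicate 4. The 9 fetal germ cell markers summed to 265, 540 and 594 CPM in these null libraries, in the order of Kit. They summed to 417, 345, 527 and 349 CPM in WT E13.5, also in the order of Kit. In WT E18.5 they summed to 428, 1029, 385 and 923 CPM, not in that order. The part of germ cells in the Kit levels was not tested.

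At 12wk the oocyte markers were not in the order of Kit, whose values at this age selected the genes. The oocyte sum was 19.8, 12.5, 152 and 48.2 CPM in WT and 6.85, 11.9 and 10.2 CPM in null. Every null sum was below every WT sum, by a small margin, while null Kit was above every WT library. By edgeR 0 of the 12 oocyte markers tested were called between the genotypes. Figla and Lhx8, transcription factors of the early oocyte, were at or below 3 counts in every null 12wk library. Among other cell types, the 7 erythroid markers summed to 87.7 to 159 CPM in WT 12wk and 221 to 813 CPM in null 12wk, also without overlap. By edgeR 0 of the 5 erythroid markers tested were called, and their part in the result was not tested. In WT, replicate 3 had the highest oocyte sum and a Kit level of 43.7 CPM, close to the 44.7 CPM of replicate 1.

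Mast cells carry much Kit, and their 8 markers changed far more than Kit did. They summed to 4.63 to 21.0 CPM in WT E13.5 and 1406 to 1980 CPM in WT E18.5, a step over which Kit did not rise. In WT PND8 the sums were 12.1 to 24.6 CPM and in null PND8 25.9 to 75.7 CPM, without overlap. In WT 12wk they were 1.41 to 2.41 CPM, with 5 of 8 markers at or below 3 counts in every library, and in null 12wk 3.38 to 4.15 CPM, also without overlap, with Fcer1a, a subunit of the IgE receptor, at or below 3 counts. No mast cell marker was called between the genotypes, 0 of 6 tested at PND8 and 0 of 3 at 12wk. Among all genes, 7.89% at PND8 and 4.66% at 12wk were higher in null without overlap. The part of mast cells in the Kit levels was not tested. Of the 6 melanocyte markers, Tyr and Tyrp1, enzymes of pigment synthesis, were at or below 3 counts in every library. At 12wk 5 of the 6, all but Pmel, were at or below 3 counts in every library of both genotypes. The list's sum was 0.697 to 0.945 CPM in WT 12wk and 1.01 to 1.31 CPM in null 12wk. These sums did not overlap, but they rest on Pmel and on counts at the floor. The part of melanocytes was not tested either.

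Theca and interstitial cells also carry Kit. Their 8 markers summed to 3877 to 13133 CPM in WT 12wk and 6100 to 9071 CPM in null 12wk, which overlapped, and the WT library with the highest sum, replicate 2, had the lowest Kit of its group. Within the list, Cyp17a1, the androgen-making enzyme of theca cells, named here after its values were seen, measured 743, 575 and 449 CPM in null 12wk and 404, 177, 15.0 and 10.7 CPM in WT 12wk. Its groups did not overlap, but its difference of 1.94 (SE 1.11) did not pass (edgeR adjusted p = 0.629). Over the whole list at 12wk, 5 of 8 markers were above 0 on the log2 scale (median 0.08), and 0 were called. At PND8 the theca list summed to 1813 to 1983 CPM in WT and 2038 to 2785 CPM in null, and at E18.5 to 191 to 288 and 312 to 415 CPM, without overlap at these ages. Most of the list did not move with its sum: 3 of 8 markers were above 0 on the log2 scale at PND8 (median -0.21), and 3 of 7 tested at E18.5 (median -0.08). The marker called at E18.5 was Hsd3b1, a steroid-making enzyme, which rose from 179 to 302 CPM (edgeR adjusted p = 0.0478). The part of these cells in the Kit and Kitl levels was not tested.

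**Figure D4:**
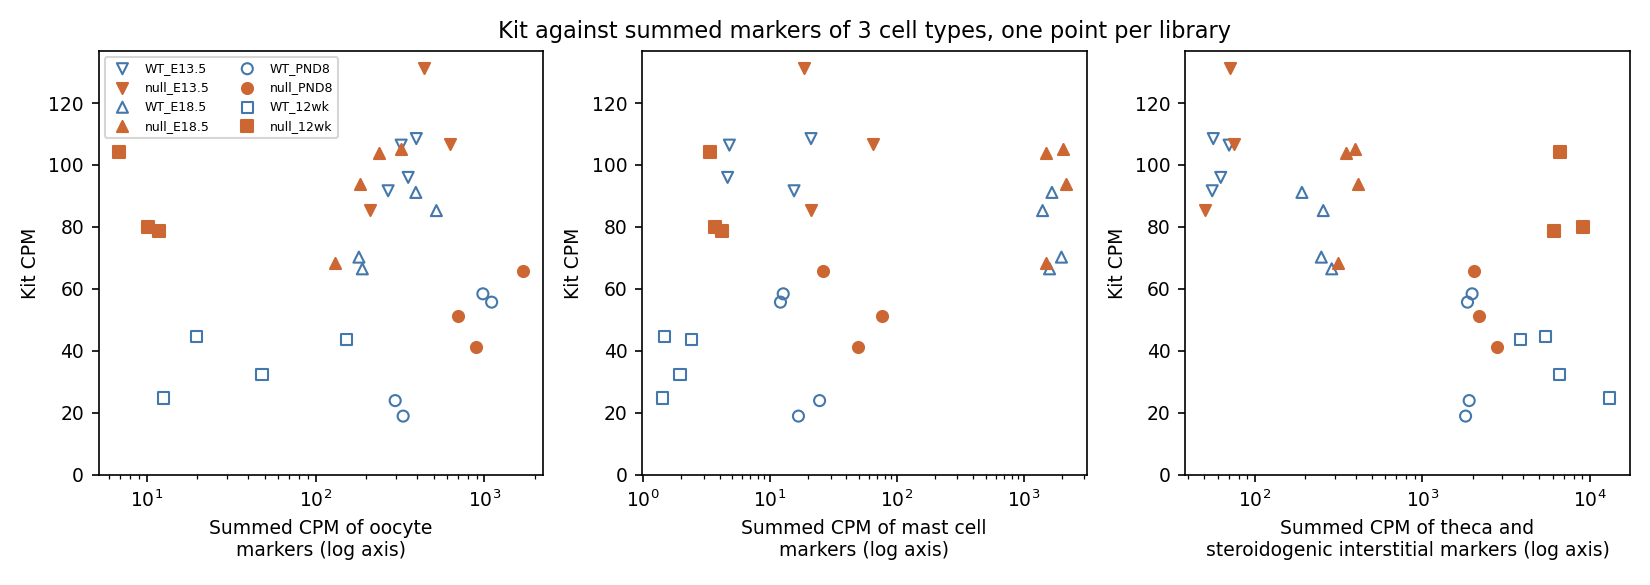
Kit CPM (vertical, linear) against the summed CPM of oocyte, mast cell and theca or interstitial markers (horizontal, log axis), 1 point per library, shape by age, open for WT and filled for null. The null 12wk libraries combine 78.9 to 104 CPM of Kit with 6.85 to 11.9 CPM of oocyte markers, and the E18.5 libraries stand far to the right for mast cell markers.

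Granulosa cells, which make the ligand, were read beside Kitl. Their 14 markers summed to 3943 to 5321 CPM in WT PND8 and 4662 to 5238 CPM in null PND8, which overlapped where Kitl did not. From E18.5 to PND8 in WT the list's sums went from between 889 and 1146 CPM to these levels, with 9 of 14 markers called higher and 3 lower, beside 37.6% and 36.9% of all genes, while Kitl was lower. Between the genotypes at E18.5, the sums were 889 to 1146 CPM in WT and 1070 to 1389 CPM in null, which overlapped. Of the 13 markers tested there, 7 were above 0 on the log2 scale. In null 3 were called higher and 0 lower, beside 3.32% and 1.67% of all genes. At 12wk the sums were 4973 to 7992 CPM in WT and 3139 to 7312 CPM in null. From E13.5, where they were 363 to 582 CPM in WT, to E18.5 both the list and Kitl were higher, with 9 of the 12 markers tested called higher and 1 lower, beside 16.6% and 17.5% of all genes.

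The genes whose log2 CPM was most like that of each member over the 29 libraries were named among 12857 genes, as a description, since libraries of one age share their cell composition. For Kitl they were Klhl23 (Pearson r = 0.958), Gucy1a1, a subunit of soluble guanylate cyclase (0.937), Nap1l3 (0.936), Tcf12, an E-box transcription factor (0.931), and Cpa3, the mast cell carboxypeptidase (0.926). Klhl23 had means of 203 CPM in WT E18.5 and 72.2 CPM in WT 12wk, and Cpa3 of 504 and 0.476 CPM. For Kit they were Foxn2 (0.836), Pxmp2 (0.812), Ablim3 (0.806), Rtl4 (0.798) and Msx2, a homeobox transcription factor (0.785). Foxn2 went from 46.9 CPM in WT E13.5 to 23.7 CPM in WT 12wk, and in null 12wk it stood at 28.7 CPM.

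With the mean of each group subtracted, so that only differences between replicates count, other genes came first. For Kit these were Rhox1 (0.846), Ap3b2 (0.844), Piwil2, a piRNA pathway gene of germ cells (0.839), Rhox2a (0.784) and Morc1, a germ cell gene (0.779). Piwil2 measured 2.62 to 14.9 CPM among WT PND8 libraries and 26.6 to 34.1 CPM in WT E13.5. For Kitl they were Atp1b2, a subunit of the sodium pump (0.921), Tmem206 (0.919), Cnot1, the scaffold of the CCR4-NOT deadenylase (0.889), Arhgap29 (0.885) and Adam10, a membrane protease (0.85). Adam10 stands on the list of proteases and partners of Kit ligand, and had means of 273 CPM in WT PND8 and 335 CPM in null PND8, a difference of 0.28 (SE 0.0704) that did not pass (edgeR adjusted p = 0.133). With Spearman's rho in place of Pearson's r, 2 to 3 of each 5 genes were shared.

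The genes around Kit were read from 9 lists of 113 genes: adaptors, negative regulators, the PI3K, MAPK and STAT arms, related receptors and ligands, proteases and partners of the ligand, regulators of follicle formation, and transcription factors reported to act on Kit. Few of them passed the test between the genotypes. At E13.5, 0 of 105 tested genes passed by edgeR and 0 by DESeq2, and 2 had an unadjusted p under 0.05, as 3.49% of all genes did. Their median log2 difference was -0.14, beside -0.01 over all genes.

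At E18.5, 1 of 109 passed higher and 1 lower, beside 3.32% and 1.67% of all genes, and 20 had an unadjusted p under 0.05, of which 13 were lower, as 22.1% of all genes did. Bmp4, a growth factor of follicle development, rose from 3.40 ± 0.257 CPM (n = 4) in WT to 7.47 ± 2.24 CPM (n = 4) in null (log2 1.12, edgeR adjusted p = 0.0208). Tcf21, a transcription factor of gonadal somatic cells, fell from 38.9 ± 10.8 to 22.9 ± 2.59 CPM (log2 -0.78, edgeR adjusted p = 0.0456). The count was 0 to 6 as each library was left out, 0 without WT replicate 3 or 4 or null replicate 1 or 3, and 6 without WT replicate 2. It was 9 with DESeq2 and 10 with limma-voom.

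At PND8, 0 of 111 passed higher and 2 lower, beside 0.045% and 0.304% of all genes, and 23 had an unadjusted p under 0.05, of which 19 were lower, as 15% of all genes did. Bmp7, a growth factor that recruits follicles into growth, fell from 39.5 ± 4.73 CPM (n = 4) in WT to 20.8 ± 2.47 CPM (n = 3) in null (log2 -0.94, edgeR adjusted p = 0.0354). Pdgfra, a receptor of the same class as Kit and a marker of stroma, fell from 598 ± 102 to 332 ± 16.6 CPM (log2 -0.86, edgeR adjusted p = 0.0473). Both calls were lost without WT replicate 1 or 2 or null replicate 3 or 4, and the count was 4 without WT replicate 3. Foxo3, the transcription factor that AKT signalling moves out of the oocyte nucleus, measured 162 CPM in WT and 168 CPM in null and did not pass (edgeR adjusted p = 0.887).

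At 12wk, 0 of 107 passed by edgeR, while 17 had an unadjusted p under 0.05, as 9.63% of all genes did, and 5 passed by DESeq2. Their median was -0.07, beside -0.0037 over all genes. Gdf9 and Bmp15, oocyte growth factors, measured 12.3 and 5.08 CPM in WT and 2.38 and 0.444 CPM in null, and neither passed (edgeR adjusted p = 0.482 and 0.408). By edgeR the 4 genotype comparisons thus gave 4 calls on these lists, none of them in the PI3K, MAPK or STAT arms. With such small shares of all genes called, few calls would fall there, so nothing is read from their absence. The lists to which the DESeq2 calls belong are not given.

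**Figure D5:**
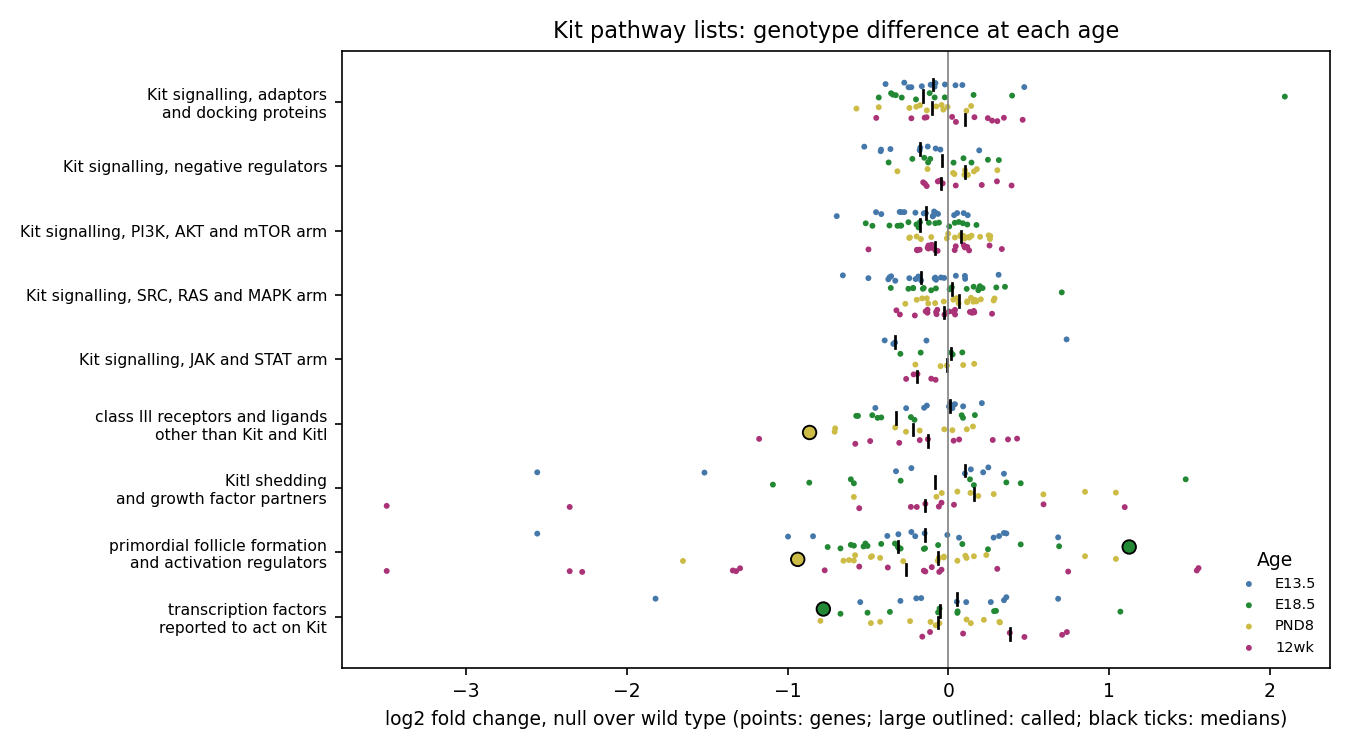
Log2 fold change of null over WT for each gene of the 9 lists (points, coloured by age; black ticks are list medians; large outlined points passed the adjusted threshold). The 4 outlined points are Bmp4 and Tcf21 at E18.5 and Bmp7 and Pdgfra at PND8.

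Across ages in WT the same lists changed much more, as did all genes. A batch that follows age could not be told apart from age in these steps. From E13.5 to E18.5, 17 of 110 tested genes were called higher and 24 lower, beside 16.6% and 17.5% of all genes. The 3 called genes with the smallest p were Tfap2c, a germ cell transcription factor, from 40.0 to 0.190 CPM, Etv5, from 60.6 to 11.1 CPM, and Ptpn6, a phosphatase that acts on Kit, from 26.4 to 6.24 CPM (edgeR adjusted p from 1.08e-05 to 5.67e-05). In null ovaries Tfap2c and Etv5 also fell over this step, from 33.6 to 0.11 and from 54.0 to 10.8 CPM, and so did Pdgfc, a ligand of the Pdgfra receptor, from 93.3 to 37.2 CPM (edgeR adjusted p from 5.04e-06 to 0.000212).

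From E18.5 to PND8, 66 of 110 rose and 28 fell, beside 37.6% and 36.9% of all genes, with a median of 0.88 beside 0.01 over all genes. Of the 19 genes of the PI3K arm, 14 rose and 2 fell, while Kit and Kitl were lower. Mtor, the kinase of that arm that drives growth, rose from 28.6 to 109 CPM, and Spred2, an inhibitor of the MAPK arm, from 4.06 to 51.7 CPM (edgeR adjusted p = 2.06e-07 and 4.3e-07). Amh, the granulosa hormone that restrains follicle recruitment, rose from 0.997 to 813 CPM (edgeR adjusted p = 2.07e-08). Of the 11 tested transcription factors reported to act on Kit, 3 rose and 7 fell.

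From PND8 to 12wk, 33 of 111 rose and 14 fell, beside 16.1% and 14.3% of all genes. Ptpn6 rose from 2.42 to 12.9 CPM, Csf1r, a receptor of the same class as Kit carried by macrophages, rose from 14.8 to 46.5 CPM, and the adaptor Grb10 fell from 326 to 106 CPM (edgeR adjusted p from 7.69e-05 to 8.33e-05). The 6 macrophage markers, of which Csf1r is one, were 33.6 to 59.5 CPM in sum at WT PND8 and 156 to 171 CPM at WT 12wk. Of the 21 tested regulators of follicle formation, 1 rose and 11 fell. Of the 15 oocyte markers, 11 fell. Both lists hold Figla, Nobox, Sohlh1, Lhx8, Gdf9 and Bmp15, so the 2 counts are not separate observations.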

How the data were processed

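Ovary RNA was sequenced in 29 libraries, grouped by the genotype and age in their labels. Per the file headers, the authors deposited RSEM expected counts per gene, estimated counts that need not be whole. Per the submitters' processing notes, the tools were Trim Galore, FastQC 0.11.5, STAR 2.5.2 and RSEM 1.3.0; the build, annotation release and strandedness are not given in the sources used here, and the headers name a folder of 2 combined projects without saying which library came from which. RSEM splits reads that similar genes share.

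Before testing, each expected count was rounded to the nearest whole number; 31.4% of the values above 0 were not whole, but all 58 values of Kit and Kitl were. Gene IDs were matched to symbols for 51633 of 51912 IDs, and 15157 IDs had no count. Each comparison used edgeR 4.0.16 (R 4.3.3) on its own libraries, with the filterByExpr filter (at least 10 counts in a sample, 15 in all), TMM scaling, glmQLFit with robust estimation, its F test and Benjamini-Hochberg adjustment over all genes tested, at a threshold of 0.05; a gene under it is called, and "rose" or "fell" is used of called genes. The SE is the log2 fold change divided by the square root of F. The scripts were tested on simulated data for 3 fetal comparisons, in which smaller changes were often missed, so a difference that did not pass is not shown to be absent. Differences of Kit and Kitl that involve PND8 or 12wk were fitted in the same way and are printed without a p. A floor of 3 counts, 0.0622 to 0.213 CPM by library, covers counting error only. All 39 replicate pairs differed beyond sampling noise.

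Kit, Kitl and the gene and marker lists were chosen with earlier results of these data known. A few single-gene values are not reported here. Named genes are both members, Cdkn1b, the 5 genes most like each member by Pearson's r of log2 CPM (prior count 2, mean CPM of at least 2), with and without group means, and up to 3 called list genes per comparison with the smallest p; markers, Foxo3, Gdf9, Bmp15, Cyp17a1 and Hsd3b1 are named beyond it, after their values were seen. The alternatives were RLE scaling, no filter, DESeq2 1.42.0, limma-voom (limma 3.58.1), all 8 groups in 1 fit, no haemoglobin genes, a replicate block, and each library left out. Replicate numbers come from the titles. Same-numbered libraries had r = 0.167 to 0.219 in the 3 pairs of null E13.5 and E18.5. They had r = 0.0808 to 0.258 in the 4 pairs of WT and null E18.5. The block changed no call of Kit or Kitl in either comparison.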

Additional observations from a re-analysis of the deposited data

How the results depend on the processing

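Of the 70 values of the tested comparisons of Kit and Kitl (E13.5 and E18.5) under settings other than leaving out a library, 66 kept their direction and side of the threshold, as did 88 of 90 with a library left out. Of the described differences that involve PND8 or 12wk, 54 of 56 and 56 of 60 kept their direction. The difference of Kit in WT from E13.5 to E18.5 passed with RLE (-0.39), DESeq2 (-0.39) and limma-voom (-0.44), and was -0.45 to -0.30 with a library left out. That from E18.5 to PND8 was -1.02 without the filter. From PND8 to 12wk in WT, Kit turned to 0.039 with limma-voom and was -0.28 to 0.22 with a library left out, higher at 12wk without WT 12wk replicate 2 (0.11) or 4 (0.0028) or WT PND8 replicate 1 (0.22) or 4 (0.18); Kitl was -0.68 to -0.31. The genotype difference of Kit at E13.5 was -0.10 to 0.19, lowest without null replicate 4 (-0.0981). The cause of these shifts was not tested.

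List genes called numbered 2 at E18.5, 9 with DESeq2, 10 with limma-voom and 0 to 6 with a library left out. At PND8 they numbered 2, 11 with DESeq2, 0 in the fit of all 8 groups and 0 to 4 with a library left out. At 12wk they numbered 0, 5 with DESeq2 and 1 in the fit of all 8 groups. Over all genes DESeq2 called 813 at PND8 and 326 at 12wk, against 62 and 2 by edgeR.

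In fits with a replicate block the genotype difference of Kit at E13.5 was -0.0012, the WT difference from PND8 to 12wk was 0.081 for Kit and -0.54 for Kitl, and list genes called numbered 1 at E18.5 and 0 at PND8. Same-numbered genotype pairs had r from -0.00545 to 0.138 at E13.5, -0.0197 to 0.258 at PND8 and 0.0313 to 0.16 at 12wk. At E18.5 all 4 such pairs were above 0, from 0.0808 to 0.258, so a pairing there is not excluded. A pair of unlike numbers at E18.5 reached 0.304. WT pairs across ages had r from -0.156 to 0.0873. The block changed no call of Kit or Kitl at the tested ages.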
